A study of Sus scrofa with 18 samples.

Results

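Genes of DNA replication and of mitosis were examined in the fat of growing Bama pigs, a miniature breed, and are described here across 2 depots and 3 ages. The 50 genes, 16 of replication and 34 of mitosis, were taken by symbol from the 29884 genes of the count table, and each of the 50 was among the 16664 genes that passed edgeR's filter on low counts. RNA-seq libraries came from subcutaneous fat (SAF) of the back and from visceral fat (VAF) beside the kidney of 9 male pigs sired by 1 boar, raised alike and fasted before slaughter. The 6 groups, with 3 libraries each, were SAF1, SAF3 and SAF6 at 1, 3 and 6 months and VAF1, VAF3 and VAF6 at the same ages. No pig was treated or carried a modified allele, so the groups differ in depot and age, and each age is a different set of pigs. A library is named by group and replicate, as in SAF6-3.

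Total counts ranged from 16404239 in SAF6-3 to 22857354 in VAF1-3, and levels are given as counts per 1000000 (CPM) with TMM-scaled library sizes. VAF6-3 was left out of the tests, so that VAF6 had 2 libraries there. The study also left it out of its screening. For 4 VAF libraries the sample titles and the library names differ. The age differs for VAF6-1, which its title puts at 3 months, and for VAF3-3, which its title puts at 6 months, while for VAF6-2 and VAF6-3 only the replicate number differs. The groups here follow the library names. Where the ages of the sample titles are used below, VAF6-1 counts as VAF3 and VAF6-3 is in the fit. VAF3-3, by its title replicate 3 of VAF6, is then left out in its place. The p-values measure the spread between these libraries, 1 per pig and depot. The 6 adipocyte markers (ADIPOQ, PLIN1, FABP4, CIDEC, LPL and LEP) summed to between 8686 and 17450 CPM in 16 libraries, but to 4984 CPM in VAF3-1 and 4290 CPM in VAF3-2. These 2 libraries also held 1428 and 540.3 CPM of 5 urothelium markers, which reached at most 5.048 CPM elsewhere, and 5788 and 5006 CPM of 4 smooth muscle markers, which reached at most 837.9 CPM elsewhere. VAF3-3 held 26.65 CPM of 6 kidney tubule markers, against at most 2.876 CPM in the other libraries.

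A dividing cell copies its DNA in S phase and then separates the copies in mitosis. Before S phase, CDC6 and CDT1 load the MCM helicase onto origins. In S phase, CDC45 and GINS switch the helicase on, and the clamp PCNA holds the DNA polymerases. Ribonucleotide reductase (RRM1 and RRM2) and thymidylate synthase (TYMS) supply the nucleotides. E2F factors drive many of these genes. The genes of mitosis are transcribed later, with NF-Y, B-Myb (MYBL2) and FOXM1, and in resting cells the DREAM complex represses both sets. In fat, mature adipocytes rarely divide, and dividing cells are found among precursor, vascular and immune cells.

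Promoters were read to show what the 2 sets share in sequence. Of the 50 genes, 49 had a window from 250 bases before to 50 bases after the gene start in the RefSeq tables of Sscrofa11.1. MCM5 lies on an unplaced scaffold and had none. The motifs were searched on both strands, with the box of NF-Y written CCAAT. The CHR element bound by DREAM and B-Myb complexes was written TTTGAA, with TTCGAA as its variant. An E2F core was taken as TTCCCGC in one spelling, TTGGCGC in another, TTCGCGC in a further one and TTGCCGC in the last. A CCAAT box stood in 76.5% of 34 mitosis windows, 66.7% of 15 replication windows and 35.4% of 19541 windows of protein-coding genes. A CHR stood in 52.9% of the mitosis windows, 20% of the replication windows and 15.6% of all windows. Both motifs together stood in 44.1%, 20% and 6.15% of the windows, in the same order. An E2F core stood in 32.4% of mitosis, 33.3% of replication and 13.6% of all windows, so the shares of the 2 sets lay close to each other for this motif. These are matches of letters and not shown to be bound.

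**Figure D1:**
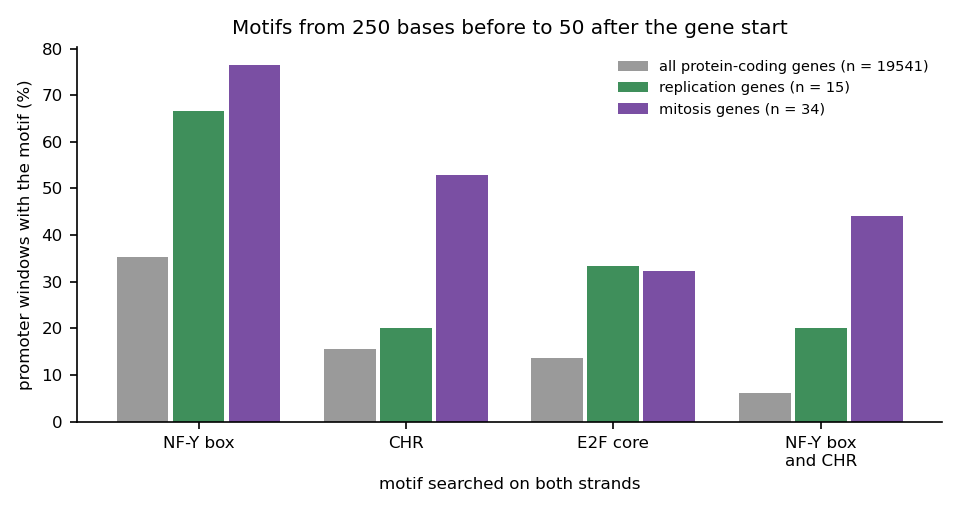
Share of promoter windows (y axis, percent) that hold each motif (x axis), for all protein-coding genes, the replication genes and the mitosis genes. The bars of the mitosis genes are the highest for the NF-Y box (76.5%), the CHR (52.9%) and both together (44.1%), and the E2F core stands at 32.4% and 33.3% in the 2 sets.

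The 250 bases before the gene start are shown for 3 mitosis genes and 2 replication genes, chosen after the motifs had been counted because their windows show the different combinations. Each is written 5′ to 3′ on the gene's strand, and capitals mark the motifs that lie whole in these bases. MKI67 encodes Ki-67, which coats mitotic chromosomes, and its window (chr14:137296313-137296562, minus strand) holds CCAAT boxes, CHR elements and E2F cores. CDK1 encodes the kinase that drives entry into mitosis, and its window (chr14:64233695-64233944, plus strand) holds a CCAAT box just before a CHR. TOP2A encodes topoisomerase II alpha, which untangles the copied DNA, and its window (chr12:22001050-22001299, plus strand) holds 5 CCAAT boxes and no E2F core. MCM6 encodes a helicase subunit, and in its window (chr15:15923388-15923637, plus strand) the E2F core matches on the 2 strands overlap in each longer capital run. CDT1 encodes an origin licensing factor, and its window (chr6:897707-897956, minus strand) holds E2F cores and neither other motif.
MKI67: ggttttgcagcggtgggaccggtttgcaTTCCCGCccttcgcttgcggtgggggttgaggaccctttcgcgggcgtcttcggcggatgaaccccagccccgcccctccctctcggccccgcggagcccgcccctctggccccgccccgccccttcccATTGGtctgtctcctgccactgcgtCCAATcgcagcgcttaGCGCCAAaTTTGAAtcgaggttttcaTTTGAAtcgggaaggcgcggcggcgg
CDK1: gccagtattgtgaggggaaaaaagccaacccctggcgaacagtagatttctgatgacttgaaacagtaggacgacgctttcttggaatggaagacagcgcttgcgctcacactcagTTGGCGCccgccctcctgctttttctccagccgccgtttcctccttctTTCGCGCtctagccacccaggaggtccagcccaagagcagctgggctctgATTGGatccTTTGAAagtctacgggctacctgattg
TOP2A: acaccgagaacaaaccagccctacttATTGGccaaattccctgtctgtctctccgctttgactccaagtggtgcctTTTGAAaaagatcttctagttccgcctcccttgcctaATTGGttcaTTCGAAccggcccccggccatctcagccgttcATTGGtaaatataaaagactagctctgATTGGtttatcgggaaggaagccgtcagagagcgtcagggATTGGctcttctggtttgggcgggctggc
MCM6: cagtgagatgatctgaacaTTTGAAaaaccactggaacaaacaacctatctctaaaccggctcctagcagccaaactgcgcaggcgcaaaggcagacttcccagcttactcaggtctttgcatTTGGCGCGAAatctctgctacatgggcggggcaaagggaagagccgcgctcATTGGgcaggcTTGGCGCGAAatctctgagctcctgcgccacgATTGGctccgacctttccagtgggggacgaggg
CDT1: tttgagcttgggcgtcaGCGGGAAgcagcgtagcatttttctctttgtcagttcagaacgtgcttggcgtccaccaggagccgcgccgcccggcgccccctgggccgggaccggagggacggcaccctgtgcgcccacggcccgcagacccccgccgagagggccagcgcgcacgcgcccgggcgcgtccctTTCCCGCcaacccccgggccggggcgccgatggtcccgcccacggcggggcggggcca

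The summed level of the mitosis genes was lowest at 6 months in both depots. In SAF1 the 34 mitosis genes summed to 319.4, 324 and 312.6 CPM in the 3 libraries, in SAF3 to 316.9, 286.2 and 334.5 CPM, and in SAF6 to 93.01, 123.4 and 71.5 CPM. The SAF6 libraries lay far below all those of the younger SAF groups. In VAF1 the sums were 309.5, 290.7 and 465.9 CPM, in VAF3 155.8, 260.6 and 384.2 CPM, and in VAF6 100.7 and 154.3 CPM, with 230.4 CPM in VAF6-3. Here the spread within a group was wide, and VAF6-2 at 154.3 CPM came close to VAF3-1 at 155.8 CPM. The mean level at 6 months was 30.7% of that at 3 months in SAF (96.0 ± 26.1 against 313 ± 24.4 CPM, SD, n = 3 and 3) and 47.6% in VAF (127 ± 37.9 against 267 ± 114 CPM, SD, n = 2 and 3). In such bulk samples, fewer cells of a type and less RNA per cell cannot be told apart.

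The summed level of the replication genes was lower at 6 months as well, by a smaller share. The 16 genes summed to 266.2, 279.1 and 251.4 CPM in SAF1, to 268.9, 276.8 and 326 CPM in SAF3, and to 166.5, 216.9 and 208.4 CPM in SAF6. In VAF they summed to 286.8, 253.3 and 326.9 CPM in VAF1, to 216.3, 299.1 and 338.3 CPM in VAF3, and to 193.4 and 197 CPM in VAF6, with 226.5 CPM in VAF6-3. The sums of SAF6, and of VAF6 without VAF6-3, did not overlap with those of the younger groups of their depot, and VAF6-3 lay above VAF3-1. The mean at 6 months was 67.7% of that at 3 months in SAF and 68.4% in VAF. The largest parts of the replication sum were MCM7, RRM1, PCNA and MCM6. Their means were 54.2, 51.2, 38.6 and 25.1 CPM in SAF3, and 56.8, 45, 27.5 and 17.2 CPM in SAF6. Most other replication genes had larger folds between these ages in SAF. The sum and the ratio below thus weigh the highest genes most. The ratio of the mitosis sum to the replication sum was 1.03 to 1.24 in the 6 libraries of SAF1 and SAF3 and 0.343 to 0.569 in SAF6. In VAF it was 1.08 to 1.43 in VAF1, 0.721 to 1.14 in VAF3 and 0.52 and 0.783 in VAF6, with 1.02 in VAF6-3, so that VAF3 and VAF6 overlapped. These sums and ratios describe genes chosen with results of these data known and carry no test.

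**Figure D2:**
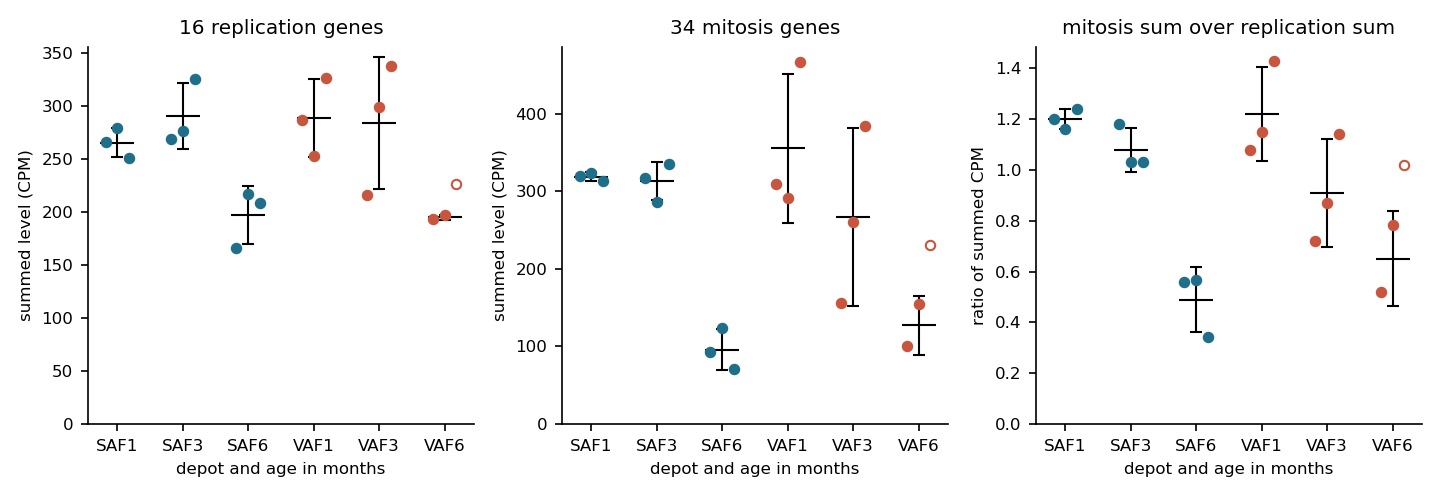
Summed level of the 16 replication genes, of the 34 mitosis genes (y axes, CPM) and the ratio of the 2 sums in each library, by depot and age (x axis). Points are libraries, bars are mean and SD without VAF6-3 (open point). SAF6 sits at 71.5 to 123.4 CPM for mitosis genes, below the 286.2 to 334.5 CPM of SAF3.

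Per kilobase of exon, the levels of the replication genes reached higher than those of the mitosis genes. Averaged over the 18 libraries, PCNA was the highest of the 50 at 29.2 CPM per kilobase, followed by MCM7 at 15.7, RRM1 at 15.1 and MCM6 at 7.17 CPM per kilobase. UBE2C, the ubiquitin-conjugating enzyme of the anaphase-promoting complex, was the highest mitosis gene at 6.93 CPM per kilobase. CDC6 was the lowest of all at 0.356 CPM per kilobase. Several of the highest genes are those whose level differed least with age, as given below.

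Between 3 and 6 months in SAF, 5 mitosis genes and none of the replication genes passed the test. The test was edgeR's quasi-likelihood test on the counts, and a call needed a Benjamini-Hochberg adjusted p under 0.05 over all genes and a difference of over 1.5-fold in either direction. A negative log2 fold change (log2FC) means lower at the older age. The 5 genes, which all fell, were PRC1, UBE2C, CDCA8, PBK and KIF23. They are 5 of 50, against 0.108% of all genes tested that fell. By an unadjusted p under 0.05, 40 of the 50 were lower, against 5.11% of all genes, and in 40 of 50 every SAF6 library lay below every SAF3 library, against 8.28% of all genes. The median log2FC was −2.3 over the mitosis genes and −1.22 over the replication genes, and 0.00721 over all genes. With DESeq2 on the same counts, 33 of the 50 were called lower (25 of mitosis and 8 of replication), against 0.885% of genes. With edgeR fitted on the SAF3 and SAF6 libraries alone, none was called, and no gene at all (0%) was called lower.

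PRC1, which bundles the microtubules of the central spindle (chr7:55869749-55900640), stood at 10.1, 7.91 and 8.2 CPM in SAF3 and at 1.12, 1.71 and 1.6 CPM in SAF6. The groups lay far apart, and the SAF6 values rest on 18 to 31 counts. Its log2FC was −2.56 ± 0.321 (SE, edgeR adjusted p = 0.0081), a 5.91-fold lower level. PRC1 shares exon bases with LOC110261561 on the other strand, and since the counting is not stated to use strand, reads of the 2 genes cannot be told apart.

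UBE2C (chr17:48018403-48021542) stood at 4.21, 6.63 and 7.22 CPM in SAF3 and at 0.562, 0.772 and 0.745 CPM in SAF6. Each SAF6 library lay below 1 CPM, on 9 to 14 counts. Its log2FC was −3.12 ± 0.484 (SE, edgeR adjusted p = 0.028). CDCA8, or borealin, a subunit of the chromosomal passenger complex (chr6:93750694-93764845), fell from 4.21, 4.5 and 5.88 CPM to 0.562, 1.05 and 0.319 CPM. PBK, a mitotic kinase (chr14:11543657-11577286), fell from 7, 5.96 and 7.12 CPM to 1.19, 1.71 and 0.798 CPM. KIF23, the centralspindlin motor of cytokinesis (chr1:167239973-167281250), fell from 7.85, 5.47 and 6.7 CPM to 0.874, 1.65 and 0.851 CPM. CDCA8 and KIF23 also share exon bases with a gene on the other strand.

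The best known proliferation markers had folds of a like size and did not pass. MKI67 stood at 18.3, 12.3 and 12.9 CPM in SAF3 and at 1.94, 3.2 and 0.532 CPM in SAF6 (log2FC −2.95 ± 0.641 SE, edgeR adjusted p = 0.083). TOP2A stood at 29.5, 19.6 and 31.4 CPM in SAF3 and at 2.37, 5.74 and 1.33 CPM in SAF6 (log2FC −3.1 ± 0.59 SE, edgeR adjusted p = 0.059). In both genes SAF6-3 was the lowest and SAF6-2 the highest of the 3 older libraries, and all 3 lay below SAF3.

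CDK1 stood at 6.88, 6.57 and 8.46 CPM in SAF3 and at 0.811, 2.43 and 0.638 CPM in SAF6. Its partner cyclin B1 (CCNB1) stood at 9.04, 5.66 and 7.07 CPM in SAF3 and at 2.56, 2.87 and 0.745 CPM in SAF6. CDC20, which activates the anaphase-promoting complex, stood at 7.91, 7.72 and 9.54 CPM in SAF3 and at 0.999, 2.1 and 0.426 CPM in SAF6. None of the 3 passed, with edgeR adjusted p of 0.075 for CDK1, 0.17 for CCNB1 and 0.063 for CDC20, although their groups did not overlap.

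The other mitosis genes in SAF spanned a wide range of log2FC. The centromeric histone variant CENPA had the lowest of the 50, at −3.24, and stood at 7, 5 and 0 counts in the SAF6 libraries. The checkpoint kinase BUB1 had −2.91, BUB1B −3.05 and TTK −1.95. Among kinesins, KIF20A had −2.87, KIF11 −2.67 and KIF2C −2.06. The transcription factors of mitosis genes differed from each other, with −2.71 for FOXM1 and −1.22 for MYBL2. The Aurora kinases had −0.794 (AURKA) and −0.393 (AURKB) and the cytokinesis factor ECT2 −0.488, and the groups of these 3 and of CCNB2 overlapped. No gene named in this group passed the test.

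Among the replication genes, TYMS and MCM5 had the smallest p in SAF and did not pass. TYMS stood at 8.3, 13.4 and 16 CPM in SAF3 and at 4.12, 4.36 and 1.86 CPM in SAF6 (log2FC −1.88 ± 0.372 SE, edgeR adjusted p = 0.064). MCM5 stood at 9.38, 9.43 and 10.4 CPM in SAF3 and at 2.5, 4.08 and 5 CPM in SAF6 (log2FC −1.34 ± 0.267 SE, edgeR adjusted p = 0.064). In both genes all SAF6 libraries lay below SAF3.

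The subunits of 1 enzyme did not share a level of difference. In the MCM helicase, MCM2, MCM3, MCM4 and MCM5 had log2FC of −1.8, −1.74, −1.47 and −1.34, and their groups did not overlap. MCM6 had −0.554 and MCM7 0.06, and the groups of both overlapped. In ribonucleotide reductase, the small subunit RRM2 stood at 10.2, 9.85 and 12.3 CPM in SAF3 and at 2.5, 4.03 and 1.28 CPM in SAF6. The large subunit RRM1 stood at 58.7, 44.9 and 50.1 CPM in SAF3 and at 41.4, 48.5 and 45.1 CPM in SAF6. RRM2 thus lay apart between the ages (log2FC −2.06), while RRM1 overlapped (log2FC −0.2). PCNA stood at 42, 30.1 and 43.6 CPM in SAF3 and at 22.2, 31.4 and 28.9 CPM in SAF6, where SAF6-2 lay above SAF3-2. These differences between subunits were not tested. MCM2 itself stood at 11.5, 13.7 and 19 CPM in SAF3 and at 2.25, 7.17 and 3.35 CPM in SAF6. MCM7 shares exon bases with AP4M1 on the other strand, and 14 of the 50 genes, MCM7 included, share exon bases with some neighbour.

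**Figure D3:**
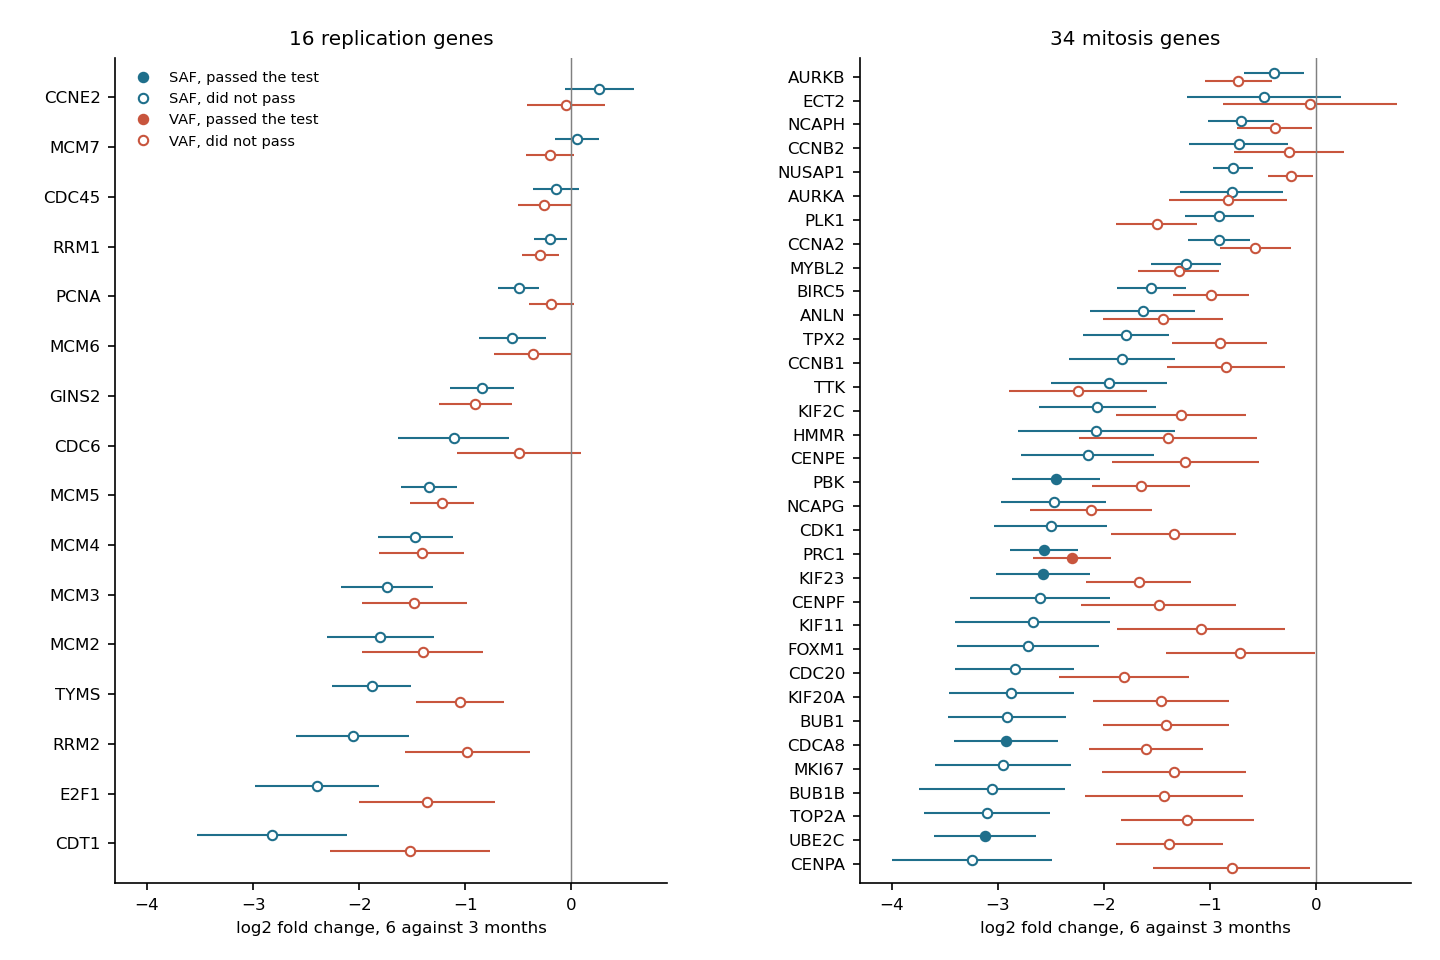
Log2 fold change of 6 against 3 months (x axis) for each replication gene (left) and mitosis gene (right) in SAF and VAF, with SE bars; filled points passed the edgeR test. The 5 SAF points (PRC1, UBE2C, CDCA8, PBK and KIF23) and 1 VAF point (PRC1) are filled, and the SAF points of most mitosis genes lie left of their VAF points.

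Markers of T cells were also lower in SAF6. The 5 T cell markers (CD3D, CD3E, CD3G, CD2 and CD5) summed to 21.04 to 26.72 CPM in SAF3 and to 8.926 to 9.47 CPM in SAF6, all 5 had groups that did not overlap, none passed the test, and none was at 0 in any library. In SAF1 their sum was 9.805 to 25.47 CPM, and 4 of the 5 overlapped between SAF1 and SAF6. In SAF6-3 the adipocyte markers summed to 9386 CPM, against 16480 and 13560 CPM in SAF6-1 and SAF6-2. PLIN1 alone of them was higher there (2040 against 1820 and 1360 CPM). A set of 5 macrophage markers summed to more (497.6 against 190.8 and 323.2 CPM). CD163 was the largest part of that sum (252 against 63.9 and 127 CPM). AIF1 lay between (12.8 against 10.2 and 13.7 CPM), and CD68 (33 CPM) was close to SAF6-2 (32.6 CPM). The sum of 6 preadipocyte and fibroblast markers was 3846 against 13030 and 15240 CPM, the lowest of the 18 libraries. Its largest part was COL1A1 (2080 against 10500 and 12500 CPM), and DCN and PI16 were lower too. DPP4 (25.7 against 2.25 and 3.86 CPM) and CD34 (160 against 155 and 123 CPM) were higher, and PDGFRA lay between (115 against 114 and 184 CPM). The part of these markers in the result was not tested. Without SAF6-3 the count of members that fell between 3 and 6 months was 1 (PRC1), against 0.0241% of genes, and the median log2FC was −1.98 over mitosis and −1.11 over replication genes. The count was 0 without SAF6-1 (against 0.018% of genes), 15 without SAF6-2 (0.277%), 2 without SAF3-1 (0.0782%) and 1 without either SAF3-2 or SAF3-3 (0.012% in both), while the median over mitosis genes stayed between −2.83 and −1.98. It was 1 (UBE2C) with VAF6-3 in the fit, against 0.0621% of genes, and 0 with the ages of the sample titles, against 0.012% of genes.

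Between 1 and 6 months in SAF, 15 mitosis genes fell, and no replication gene passed. They are 15 of 50, against 0.6% of all genes tested that fell. They were CENPA, UBE2C, BUB1, MKI67, TOP2A, CDC20, KIF23, KIF20A, CDCA8, KIF2C, NCAPG, CDK1, PRC1, PBK and NUSAP1, with log2FC from −3.89 for CENPA to −1.02 for NUSAP1. NCAPG is a condensin subunit and NUSAP1 a spindle-associated protein. In 41 of 50 genes every SAF6 library lay below every SAF1 library, against 10.9% of all genes. PRC1 stood at 7.04, 9.55 and 6.47 CPM in SAF1 (log2FC −2.38 ± 0.319 SE, edgeR adjusted p = 0.0047). UBE2C stood at 5.56, 8.83 and 6.84 CPM in SAF1 (log2FC −3.34 ± 0.487 SE, edgeR adjusted p = 0.0077). MKI67 stood at 19.4, 14.9 and 17.3 CPM in SAF1, with each SAF6 library below 4 CPM (log2FC −3.19 ± 0.645 SE, edgeR adjusted p = 0.036). TYMS (log2FC −1.63 ± 0.37 SE, edgeR adjusted p = 0.059) and MCM5 (log2FC −1.16 ± 0.266 SE, edgeR adjusted p = 0.061) had the smallest p of the replication genes. DESeq2 called 32 of the 50 lower, against 1.5% of genes. Without SAF6-3, 8 fell, against 0.386% of genes, and with SAF1 and SAF6 alone in the fit 4 fell, against 0.222% of genes. The count was 2 without SAF1-3 (against 0.0783% of genes), 3 without SAF6-1 (0.198%), 4 without SAF1-2 (0.217%), 7 without SAF1-1 (0.247%) and 22 without SAF6-2 (0.565%), and 8 with the ages of the sample titles, against 0.299% of genes. This comparison shares the SAF6 libraries with that of 3 and 6 months.

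In VAF between 3 and 6 months, PRC1 was the only one of the 50 to pass, and it fell. The share of all genes tested that fell was 0.012%. PRC1 stood at 15.4, 7.13 and 11.2 CPM in VAF3, at 2.11 and 2.44 CPM in VAF6, and at 7.74 CPM in VAF6-3 (log2FC −2.3 ± 0.366 SE, edgeR adjusted p = 0.048). The 2 tested VAF6 libraries lay below VAF3, while VAF6-3 lay above VAF3-2. All 50 genes had a log2FC below 0, against 52.9% of all genes, and in 18 of 50 the groups did not overlap, against 12.7% of all genes. The median log2FC was −1.31 over mitosis genes and −0.94 over replication genes, and −0.04 over all genes. Without VAF3-3 the medians were −0.847 and −0.585, and leaving out other single libraries gave −1.86 (without VAF6-2) to −0.927 (without VAF6-1) for mitosis genes. DESeq2 called 12 of the 50 lower, against 3.05% of genes. PRC1 did not pass with VAF6-3 included (log2FC −1.44, edgeR adjusted p = 0.11), with the 2 groups alone in the fit (0.45) or without VAF3-1 and VAF3-2 (log2FC −2.29, edgeR adjusted p = 0.093), a setting chosen after the data were seen, in which the median log2FC was −1.91 over mitosis genes. Its adjusted p was also above the limit without VAF3-1 (0.098), VAF6-1 (0.36) or VAF6-2 (0.3) and with a replicate block (0.056), while 6 of the 50 were called lower without VAF3-3, where 7.82% of all genes were. With the ages of the sample titles, where VAF6-3 entered the fit and VAF3-3 left it, the direction of the mitosis genes turned. Their median log2FC was 0.205, and ECT2 was the 1 gene called, higher at 6 months, where 10.7% of all genes were called.

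The other genes with the smallest p in VAF did not pass. PLK1, a kinase of several steps of mitosis, stood at 3.08, 5.96 and 6.48 CPM in VAF3 and at 1.88 and 1.77 CPM in VAF6 (log2FC −1.5 ± 0.382 SE, edgeR adjusted p = 0.086). MCM5 stood at 8.92, 13.3 and 12.3 CPM in VAF3 and at 4.7 and 5.18 CPM in VAF6 (log2FC −1.22 ± 0.304 SE, edgeR adjusted p = 0.083). MCM4 stood at 10.5, 30.5 and 27.5 CPM in VAF3 and at 8.92 and 8.17 CPM in VAF6 (log2FC −1.41 ± 0.403 SE, edgeR adjusted p = 0.1). In all 3 the VAF6 libraries lay below VAF3.

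The 3 VAF3 libraries stood far apart for most of the genes. MKI67 stood at 4.83, 18.9 and 24.1 CPM in VAF3 and at 2.52 and 10.1 CPM in VAF6. TOP2A stood at 8.29, 16.2 and 39.1 CPM in VAF3 and at 4.52 and 13.8 CPM in VAF6. For both, VAF6-2 lay above VAF3-1, so the ages overlapped. VAF3-1 was the lowest VAF3 library for 39 of the 50 genes and VAF3-3 the highest for 35. VAF3-3 also held 39.37 CPM of 5 B cell and plasma cell markers, against at most 12.19 CPM in any other library, and VAF3-2 and VAF3-3 held 52.86 and 49.81 CPM of the T cell markers, against 19.17 CPM in VAF3-1. VAF3-1 and VAF3-2 are the libraries with markers of urothelium and smooth muscle. Their 5 urothelium markers had a lower median in VAF6 (log2FC −8.6, 4 of 5 with unadjusted p under 0.05) and their 4 smooth muscle markers likewise (−3.35, 4 of 4). Within VAF6 the urothelium marker KRT5 was at 0 in both libraries and UPK2 in VAF6-2. The part of these markers in the result was not tested.

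Between 1 and 6 months in VAF, none of the 50 passed edgeR's test, where 0.03% of all genes fell, with 38 at an unadjusted p under 0.05 and all 38 lower, against 6.96% of all genes. In 44 of 50 genes both VAF6 libraries lay below every VAF1 library, against 18.3% of all genes. The median log2FC was −1.9 over mitosis and −1.01 over replication genes. PRC1 (log2FC −1.91 ± 0.361 SE) and MYBL2 (log2FC −2.04 ± 0.393 SE) each had an edgeR adjusted p of 0.07. MYBL2 stood at 22.2, 13.3 and 23.6 CPM in VAF1 and at 4.87 and 4.76 CPM in VAF6. MCM3 stood at 15.9, 13.6 and 19.7 CPM in VAF1 and at 4.7 and 4.88 CPM in VAF6 (log2FC −1.78 ± 0.502 SE, edgeR adjusted p = 0.17), and MCM5 had −1.05 ± 0.302 (SE, edgeR adjusted p = 0.18). In MYBL2 and MCM3 the ages lay well apart. DESeq2 called 18 of the 50 lower, against 1.09% of genes, and edgeR on VAF1 and VAF6 alone called 4 lower (CDC20, MCM3, MYBL2 and NCAPG), against 0.198% of genes.

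**Figure D4:**
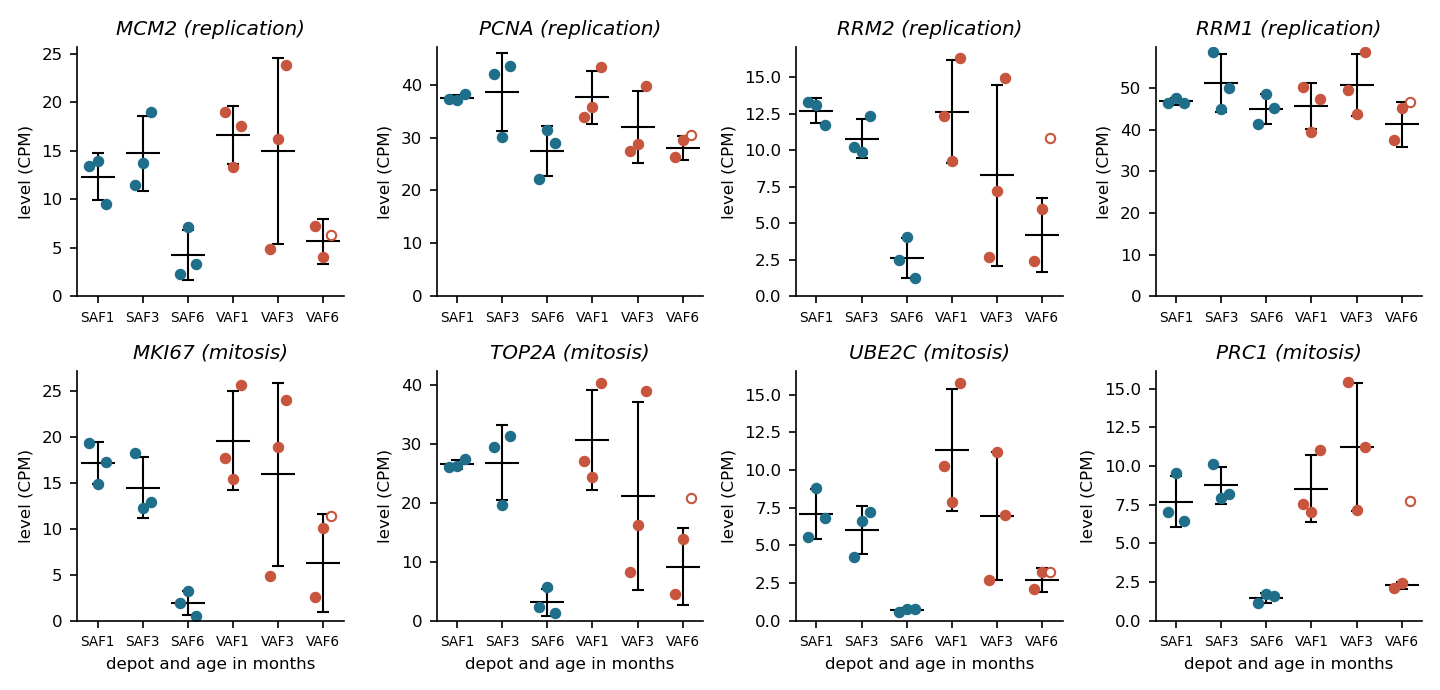
Level of 4 replication genes (top) and 4 mitosis genes (bottom) in each library (y axis, CPM, from 0), by depot and age (x axis). Points are libraries, bars are mean and SD without VAF6-3 (open point). UBE2C and PRC1 in SAF6 sit at 0.562 to 1.71 CPM, while RRM1 stays between 37.5 and 58.7 CPM throughout.

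Between 1 and 3 months none of the 50 passed in either depot, where 0.024% of all genes did in SAF and 1.67% in VAF. In SAF no member had an unadjusted p under 0.05, where 3.79% of all genes were lower and 3.92% higher by this measure, and DESeq2 also called none. The median log2FC was −0.04 over mitosis and 0.18 over replication genes. GINS2 (log2FC 0.42 ± 0.298 SE, edgeR adjusted p = 0.84), MCM7 (0.27 ± 0.204, 0.86), NUSAP1 (−0.24 ± 0.19, 0.87) and NCAPH (0.35 ± 0.31, 0.9) had the smallest p of their class. CENPA was the 1 gene whose groups did not overlap, at 3.47, 3.78 and 3.34 CPM in SAF1 and 2.45, 1.58 and 2.68 CPM in SAF3, where 9.06% of all genes were lower without overlap.

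In VAF, 42 of 50 genes were lower at 3 than at 1 month, against 48.8% of all genes, and 2 had an unadjusted p under 0.05, against 6.16% of all genes that were lower. They were CCNB2 (log2FC −1.12 ± 0.463 SE, edgeR adjusted p = 0.27) and MYBL2 (−0.745 ± 0.323, 0.3). PCNA (−0.248 ± 0.19, 0.64) and RRM2 (−0.624 ± 0.503, 0.67) had the smallest p of the replication genes, and without VAF3-1 and VAF3-2 both turned to a log2FC above 0 (0.058 and 0.215). The median log2FC turned as well, from −0.493 to 0.0641 over mitosis genes and from −0.113 to 0.172 over replication genes, and the latter was 0.184 without VAF3-1 alone and 0.00845 without VAF1-3. CCNB2 stood at 8.68, 18.9 and 15.9 CPM in VAF1 and at 3.45, 7.13 and 9.6 CPM in VAF3, with VAF3-3 above VAF1-1. CENPA, KIF2C and NUSAP1 were the 3 genes with no overlap, all lower at 3 months, against 6.76% of all genes. VAF1-3 was the highest of all 18 libraries for 29 of the 50 genes, and SAF6-3 the lowest for 29.

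SAF and VAF did not differ in any of the 50 genes at any age by the test, where a positive log2FC means higher in SAF. At 1 month no gene of the whole table passed (0%), and GINS2, a helicase subunit, had the smallest p of the 50. It stood at 3.25, 4.29 and 3.81 CPM in SAF1 and at 8.44, 5.46 and 6.22 CPM in VAF1, with no overlap (log2FC −0.835 ± 0.298 SE, edgeR adjusted p = 0.59), and it was the 1 gene with an unadjusted p under 0.05, against 6.25% of all genes. CDC6 and MCM4 also had lower values in SAF1 with no overlap, and these 3 of 50 stand against 8.46% of all genes. CDC6, MYBL2 and UBE2C followed in their classes, with log2FC of −0.58, −0.686 and −0.693 and edgeR adjusted p of 0.86, 0.8 and 0.85. At 3 months 2.73% of all genes passed and none of the 50 did, nor had any an unadjusted p under 0.05, against 18% of all genes. NCAPH (log2FC 0.49 ± 0.311 SE, edgeR adjusted p = 0.42), BUB1B (0.84 ± 0.62, 0.5), PCNA (0.27 ± 0.19, 0.47) and GINS2 (−0.42 ± 0.296, 0.47) had the smallest p of their class, and all 4 turned sign without VAF3-1 and VAF3-2. No gene of the 50 had groups that did not overlap at 3 months, where 8.31% of all genes were lower and 7.77% higher in SAF without overlap.

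At 6 months 38 of 50 genes had a log2FC below 0, against 49.7% of all genes, and 0.012% of all genes passed. UBE2C stood at 0.562, 0.772 and 0.745 CPM in SAF6 and at 2.11 and 3.23 CPM in VAF6, with 3.26 CPM in VAF6-3. It was lower in every SAF6 library than in every VAF6 library (log2FC −1.94 ± 0.514 SE, edgeR adjusted p = 0.26). CENPA stood at 0.437, 0.276 and 0 CPM in SAF6 and at 0.528 and 1.89 CPM in VAF6 (log2FC −2.35 ± 0.805 SE, edgeR adjusted p = 0.42). CDT1 (log2FC −1.43 ± 0.768 SE, edgeR adjusted p = 0.54) and CCNE2 (0.77 ± 0.374, 0.51) had the smallest p of the replication genes. CCNE2, the cyclin of S phase entry, and PLK1 had higher values in SAF6 than in the tested VAF6 libraries, with no overlap but by little. The nearest values, SAF6 against VAF6, were 5.62 and 5.55 CPM for CCNE2 and 2.07 and 1.88 CPM for PLK1. CCNE2 shares exon bases with INTS8 and PLK1 with ERN2, each on the other strand. VAF6-3, at 6.26 CPM of CCNE2 and 3.34 CPM of PLK1, lay above SAF6-1 (5.62 and 2.93 CPM) in both. Of the 50, 5 mitosis genes (UBE2C, CENPA, MKI67, TOP2A and BIRC5) had an unadjusted p under 0.05 and lower values in SAF6, against 4.99% of all genes, and 8 had lower values with no overlap, against 13.4%. The 5 T cell markers were lower in SAF6 (8.926 to 9.47 CPM) than in VAF6 (30.7 and 37.86 CPM), with no overlap in any of the 5, while VAF6-3 held 11.34 CPM. Their part in the result was not tested.

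The age differences of the 2 depots were set against each other as interactions. None of the 50 passed, and no gene of the table did (0%) for any of the 3 interactions. For 3 against 6 months, 3 mitosis genes had an unadjusted p under 0.05, against 3.52% of all genes that were lower. The difference of log2FC, SAF minus VAF, was −1.74 ± 0.667 for UBE2C, −2.45 ± 1.03 for CENPA and −1.89 ± 0.817 for TOP2A (SE, edgeR adjusted p = 0.52, 0.55 and 0.55). The median of this difference was −0.84 over mitosis genes, −0.23 over replication genes and 0.05 over all genes. The larger fold of many mitosis genes in SAF than in VAF is thus not shown to differ between depots.

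The 50 genes did not vary as 1 block over the libraries. The correlation of each gene's log2(CPM + 1) with the mean of the 50 over 18 libraries was above 0.9 for 21 of 34 mitosis genes and 4 of 16 replication genes, such as MKI67 (Pearson's r = 0.959) and BUB1B (0.968). MCM7 (−0.262), CCNE2 (−0.0018), CDC45 (0.176), ECT2 (0.297) and RRM1 (0.458) were the lowest. The libraries share groups and marker differences, so these values describe the table. Each gene is also part of the mean of the 50, and 34 of the 50 are mitosis genes. That mean therefore leans towards the mitosis genes, so the counts above 0.9 cannot show whether the classes differ. MCM7 stood at 40 to 75.4 CPM over the 18 libraries, highest in SAF6-3, the library lowest for most other members. CDC45, which helps the helicase unwind DNA, stood at 8.42 to 16 CPM, with its ages overlapping. Among genes outside every list, PCLAF (r = 0.987), which binds PCNA, the kinesin KIF22 (0.971) and SHCBP1 (0.962) were nearest to the mean of the 50 over the same 18 libraries, followed by CENPN, SPAG5, CENPT, TCF19, ATAD2, DIAPH3 and ZGRF1.

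Other genes of the same pathways were taken from lists, by count. Of 45 other mitosis genes, 3 fell between 3 and 6 months in SAF (NDC80, NEK2 and HJURP, against 0.108% of all genes), 9 fell between 1 and 6 months in SAF (against 0.6%), and none passed in VAF. The kinetochore gene NDC80 fell from a mean of 3.54 to 0.19 CPM (log2FC −4.19 ± 0.6 SE, edgeR adjusted p = 0.016). The centrosomal kinase NEK2 fell from 2.7 to 0.304 CPM (log2FC −3.14 ± 0.5 SE, edgeR adjusted p = 0.028). The CENPA chaperone HJURP fell from 2.36 to 0.0729 CPM (log2FC −4.87 ± 0.799 SE, edgeR adjusted p = 0.028). In the SAF6 libraries HJURP stood at 0, 0.165 and 0.0532 CPM and NDC80 at 0.187, 0.276 and 0.106 CPM. Both lie near the floor there, so the size of their folds is limited by depth. Of 32 other replication genes none passed in any of these comparisons, with a median log2FC of −0.54 in SAF and −0.625 in VAF between 3 and 6 months. TK1, the thymidine kinase of S phase, had the smallest p of them in SAF (log2FC −2.57 ± 0.618 SE, edgeR adjusted p = 0.12), followed by POLE (−2.0, 0.12) and UHRF1 (−2.53, 0.13). In VAF the smallest p were those of POLE (−2.36), DSCC1 (−2.04) and RFC2 (−0.92) among replication genes, and of NEK2 (−2.08), CDC25B (−1.28) and PTTG1 (−1.85) among mitosis genes, with edgeR adjusted p from 0.08 to 0.1.

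Genes that act upstream of both sets were counted in the same way. Of 7 G1 cyclins and kinases, CDK2 alone passed, falling between 1 and 6 months in SAF from a mean of 17.9 to 10.1 CPM (log2FC −0.83 ± 0.178 SE, edgeR adjusted p = 0.044). CDK4 stood at 93.8 to 126 CPM in SAF and did not pass. Of 6 inhibitors of cyclin-dependent kinases none passed between ages. The inhibitor p27 (CDKN1B) had means of 118 CPM in SAF3 and 152 CPM in SAF6 (log2FC 0.358 ± 0.229 SE, edgeR adjusted p = 0.68), with 220 CPM in SAF6-3 and 116 and 120 CPM in the other SAF6 libraries. The inhibitor p21 (CDKN1A) had means of 180 and 130 CPM (log2FC −0.477 ± 0.4 SE, edgeR adjusted p = 0.77), with 48.3 CPM in SAF6-3. CDKN2B was lower in SAF3 than in VAF3 (log2FC −5.19 ± 1.3 SE, edgeR adjusted p = 0.048), where it stood at 16.8 and 7.79 CPM in VAF3-1 and VAF3-2 and at 0.421 CPM in VAF3-3. Of 16 pocket proteins, E2F factors and DREAM subunits none passed in any comparison, and E2F8 had the smallest p between 3 and 6 months in SAF (log2FC −2.87 ± 0.723 SE, edgeR adjusted p = 0.13), followed by E2F2 (−2.15) and E2F7 (−1.64). RBL2, the pocket protein p130 of the DREAM complex, had means of 120 CPM in SAF3 and 186 CPM in SAF6 (log2FC 0.625 ± 0.319 SE, edgeR adjusted p = 0.57), and of 111 and 157 CPM in VAF3 and VAF6.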

How the data were processed

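RNA of 18 fat libraries was sequenced. The authors used fastp for trimming, HISAT2 (2.0.4 by the submitters' processing notes) for alignment to the Sscrofa11.1 build and HTSeq for counting per gene, and the deposited values are raw counts. The strand setting and annotation release are not given in the sources used here.

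The members and lists were chosen with earlier results of these data known. Counts of 17 libraries (VAF6-3 left out) were fitted together in edgeR 4.0.16 (R 4.3.3) after filterByExpr and TMM scaling, with quasi-likelihood tests for 9 comparisons and 3 interactions and Benjamini-Hochberg adjustment over 16664 genes. Calls needed an adjusted p under 0.05 and, except for interactions, a difference over 1.5-fold. The biological coefficient of variation was 0.36, and the median total was 18901509.5 counts. CPM and sums were computed on the TMM scale, and correlations used log2(CPM + 1). Scripts were tested on simulated data. Alternatives were DESeq2 1.42.0, edgeR with the size factors of DESeq2, edgeR without the count filter, no fold limit, fits of the compared groups alone, VAF6-3 included, the ages of the sample titles (VAF6-3 in the fit and VAF3-3 left out), a replicate block, each library left out, and, added after the markers were seen, VAF3-1 and VAF3-2 left out. For age comparisons and interactions the replicate block was the replicate number across all groups. It ties different pigs of different ages there and is not a pairing. For depot comparisons the block was the replicate number within an age, as if same-numbered libraries came from the same pig.

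Named with full statistics were the 2 genes of each class with the smallest p in each comparison; MKI67, TOP2A, CDK1, CCNB1, CDC20, MCM2, PCNA and RRM2 are given per library, and pathway genes by the 3 smallest p per list. The library names of 3 VAF libraries were checked against counts printed in the study's gene lists, and all values compared were equal (2076 for VAF3-3, 725 for VAF6-1 and 725 for VAF6-2). The labels do not say which SAF and VAF libraries came from 1 pig. Same-numbered SAF and VAF libraries deviated together at 6 months (r of 0.671, 0.52 and 0.702), but not at 1 month (−0.201, −0.0303 and 0.329) or 3 months (0.12, 0.479 and −0.013). Deviations were taken from the mean of all 3 libraries of a group, VAF6-3 included, so the 3 values of an age are not independent. At 6 months SAF6-3 and VAF6-3 each differed most from the rest of their group, so this 1 pair can weigh on all 3 values.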

Additional observations from a re-analysis of the deposited data

Results flagged for a closer look

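VAF6-3, the library outside the tests, held 227 CPM of the replication genes and 230 CPM of the mitosis genes. Both sums are above those of VAF6-1 and VAF6-2, and 39 of the 50 genes (11 of 16 replication and 28 of 34 mitosis genes) were higher in VAF6-3 than in both, against 42.9% of all genes tested. The library also held 1433 CPM of the 5 macrophage markers, where VAF6-1 had 418.6 and VAF6-2 449.8 CPM. CD163 was the largest part of this sum (817 against 146 and 154 CPM). AIF1 lay between (24.4 against 28.7 and 19.3 CPM), and the other macrophage markers were higher. The adipocyte markers summed to 8686 CPM, against 16160 and 15370 CPM. ADIPOQ lay between (2140 against 2030 and 2380 CPM), and the other adipocyte markers were lower. The part of these markers in the result was not tested.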

How the results depend on the processing

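Counts of members called, all lower at the older age unless stated, moved with the tool and the libraries in the fit, and the cause was not tested. With DESeq2 they were 33 and 12 between 3 and 6 months in SAF and VAF and 32 and 18 between 1 and 6 months. With the compared groups alone they were 0, 0, 4 and 4. With VAF6-3 included they were 1 in SAF and 0 in VAF between 3 and 6 months. With the ages of the sample titles they were 0 in SAF between 3 and 6 months, 8 in SAF between 1 and 6 months, and 1 (ECT2, higher in SAF, where 4.88% of all genes were called) between depots at 3 months. With the replicate block the 1 call in VAF between 3 and 6 months became 0, and no other count moved by over 1.5 times. Without VAF3-1 and VAF3-2 that count was also 0, and log2FC turned sign for PCNA (0.058) and RRM2 (0.215) between 1 and 3 months in VAF and, between depots at 3 months, for PCNA (−0.0317), GINS2 (0.0049), NCAPH (−0.0243) and BUB1B (−0.108). The summed replication level of VAF6 was 178 CPM on library totals alone and 206 CPM with VAF6-3. With 1 library left out at a time, members called ranged from 0 to 15 (SAF) and 0 to 6 (VAF) between 3 and 6 months, 2 to 22 (SAF) and 0 to 0 (VAF) between 1 and 6 months, and 0 to 1 between depots at 3 months (ECT2, without VAF3-3, where 17.8% of all genes were called). Apart from leaving out single libraries, 107 recomputed counts and summed levels stayed near their main value and 17 moved, and among single genes 11 calls were lost, 13 were gained and 6 log2FC turned sign. Medians of a class turned sign in VAF with the title ages (0.205, mitosis, 3 against 6 months), between 1 and 3 months in VAF (values beside that comparison) and between depots. At 3 months the depot medians went from 0.247 to −0.293 (mitosis) and from 0.0527 to −0.235 (replication) without VAF3-1 and VAF3-2, to −0.094 and −0.218 without VAF3-1 alone, and the replication median to −0.101 without SAF3-3. At 1 month the mitosis median went from −0.202 to 0.082 without VAF1-3. Genes at a few counts in SAF6, such as CENPA, are limited by depth.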
